A study of Homo sapiens with 12 samples.

Results

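The experiment asked which genes of Ls174T cells respond when the transcriptional output of the Wnt pathway is blocked for 24 h. Ls174T is a human colorectal carcinoma line in which that pathway is constantly active. The Ls174T-L8 derivative carries a transgene for dominant-negative Tcf4 that doxycycline switches on. Of the 12 arrays of the study, 6 belong to this line and were chosen by title: 3 from cells given doxycycline for 24 h (induced, titled dox1 to dox3) and 3 from cells grown without it (uninduced, con1 to con3). The other 6 arrays come from a derivative with an inducible shRNA against β-catenin, and enter here through the choice of probe set and filter, which use the mean over all 12 arrays, the shared estimate of the spread, and a comparison of single genes. Both groups of the L8 line carry the transgene, so they differ in doxycycline and in what it induces. No array of cells given doxycycline without a transgene was used here, so the inducer's own effect and that of dominant-negative Tcf4 cannot be told apart. L8 is 1 derivative of 1 cell line, and the labels leave unsaid whether a group's 3 arrays represent separate cultures. The p-values therefore measure the spread between these arrays, which may be technical, and 3 arrays per group limit the precision.

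Wnt ligands keep β-catenin from being degraded, and β-catenin then enters the nucleus and binds TCF/LEF factors on DNA, where it turns repression into activation. Tcf4, the product of TCF7L2, is the main such factor of the intestinal epithelium. The pathway keeps cells at the base of the crypt proliferating and undifferentiated, while cells that leave the crypt lose the signal, stop dividing and become absorptive or secretory. A Tcf4 that can bind DNA but not β-catenin acts as a dominant negative, because it occupies the target sites without activating them.

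Values are array signals in arbitrary units. Changes are log2 differences, induced minus uninduced, with the standard error of a limma model. A gene was called, and is said to have risen or fallen, at a Benjamini-Hochberg adjusted p under 0.05. Group levels are geometric means of 3 arrays. The transgene was visible in the arrays of its own group. A TCF7L2 probe set read 414.6, 384.0 and 425.0 in uninduced cells and 2905.0, 2557.6 and 3921.8 in induced cells, a log2 change of 2.92 ± 0.14. Another TCF7L2 probe set rose by 3.53. The rest rose less or were not called: 3 were called, at 0.72, 0.67 and 0.48, close to their changes of 0.74, 0.64 and 0.54 with the shRNA, and the remaining pair (0.41 and 1.05) did not pass. The brightest CTNNB1 probe set, for β-catenin, had a change of 0.17 ± 0.11 that was not called (adjusted p = 0.42). Arrays of the same group correlated at 0.964 to 0.969 and arrays of different groups at 0.933 to 0.940. The first principal component, with 47.59% of the variance, separated induced from uninduced arrays.

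Of 12386 genes tested, 36% were called, 20% lower and 16% higher. At least a 2-fold change was called lower in 2.64% and higher in 4.92%. The median change over all tested genes was -0.05. These shares are the background for each gene list below. Induced and uninduced values did not overlap for 5837 genes, or 47.1% of those tested.

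**Figure D1:**
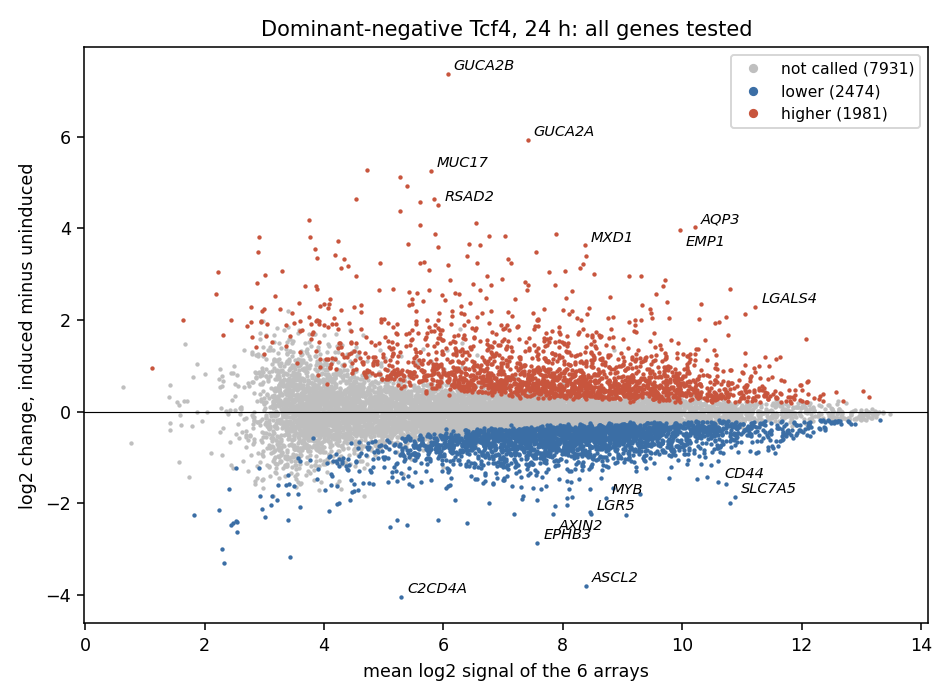
Log2 change (vertical axis) against the mean log2 signal of the 6 arrays (horizontal axis) for all 12386 genes tested, with called decreases in blue, called increases in red and the others in grey. The largest changes are increases, led by GUCA2B at 7.39, and the decreases reach -4.06 for C2CD4A and -3.81 for ASCL2.

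Among called genes without overlap, the 25 largest decreases included crypt base genes and the 25 largest increases included genes of surface epithelium, mucus and barrier. ASCL2, a basic helix-loop-helix factor on which intestinal stem cells depend, read 1179.9, 1306.7 and 1268.2 in uninduced cells and 111.5, 93.6 and 67.6 in induced cells. It fell by 3.81 ± 0.17, and every induced array lay far below every uninduced one. Some large decreases started from low signals: 12 of the 25 ended below 10.2, the signal at which dim genes were filtered. For 7 of these 12 the size depended on the treatment of low values by more than 1.5 times, and these 7 passed the filter through the arrays of the shRNA line, since their mean in this line was below it. When 3.5 was added to all signals before log2 in place of the floor, KCNT1 changed by -1.93 in place of -3.30, C6orf141 by -1.72 in place of -3.01 and RETNLB by -1.65 in place of -2.63. LINC00910, KIF21B, NT5M and LENG9 moved in the same way, to between -1.36 and -1.44. OR51E1 (32.4 to 3.59), LINC00173 (24.8 to 5.85) and CDK5R1 also ended below the filter signal. Among brighter genes NAV3, a neuron navigator protein, fell from 313 to 66.5, LFNG, a glycosyltransferase that modifies Notch, fell from 136 to 26.3, ODAM fell from 98.7 to 17.7, and PNMA3 from 82.3 to 14.3.

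The 25 largest increases were led by the guanylins. GUCA2B, uroguanylin, read 10.6, 0.6 and 13.2 in uninduced cells and 867.5, 739.9 and 1019.5 in induced cells. GUCA2A, guanylin, read 26.1, 16.5 and 24.1 before and 1303.4, 1123.4 and 1594.7 after induction. Both encode peptides that activate guanylate cyclase C on the luminal surface and drive fluid secretion. Neither gene's groups overlapped. The change of GUCA2B was 7.39 ± 0.81 with values under 1 set to 1, and 6.46 with the offset. AQP3, a water and glycerol channel of surface cells, rose with little spread between arrays. It read 291.7, 276.0 and 314.3 before and 4648.2, 4954.8 and 4724.6 after induction, a change of 4.02 ± 0.12 (adjusted p = 3.13e-12). EMP1, an epithelial membrane protein, rose from 253 to 3954, IL1RN, the antagonist of the interleukin 1 receptor, rose from 61.5 to 909, and DUSP5, a nuclear ERK phosphatase, rose from 22.5 to 392. As with the decreases, 12 of the 25 started below the filter signal, among them ZBTB7C (4.23 to 164), GDPD3 (4.62 to 115), HSPB8 (5.16 to 68.1), PTPRH (8.46 to 177) and TMEM61 (3.62 to 50.6). CLIC5 (15.0 to 221) and TTC22 (11.9 to 150.4) started just above it. Another probe set of HSPB8 was not called (0.02). The size of ARC moved most with the offset, from 3.82 to 2.51, and ARC too passed the filter through the arrays of the shRNA line.

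**Figure D2:**
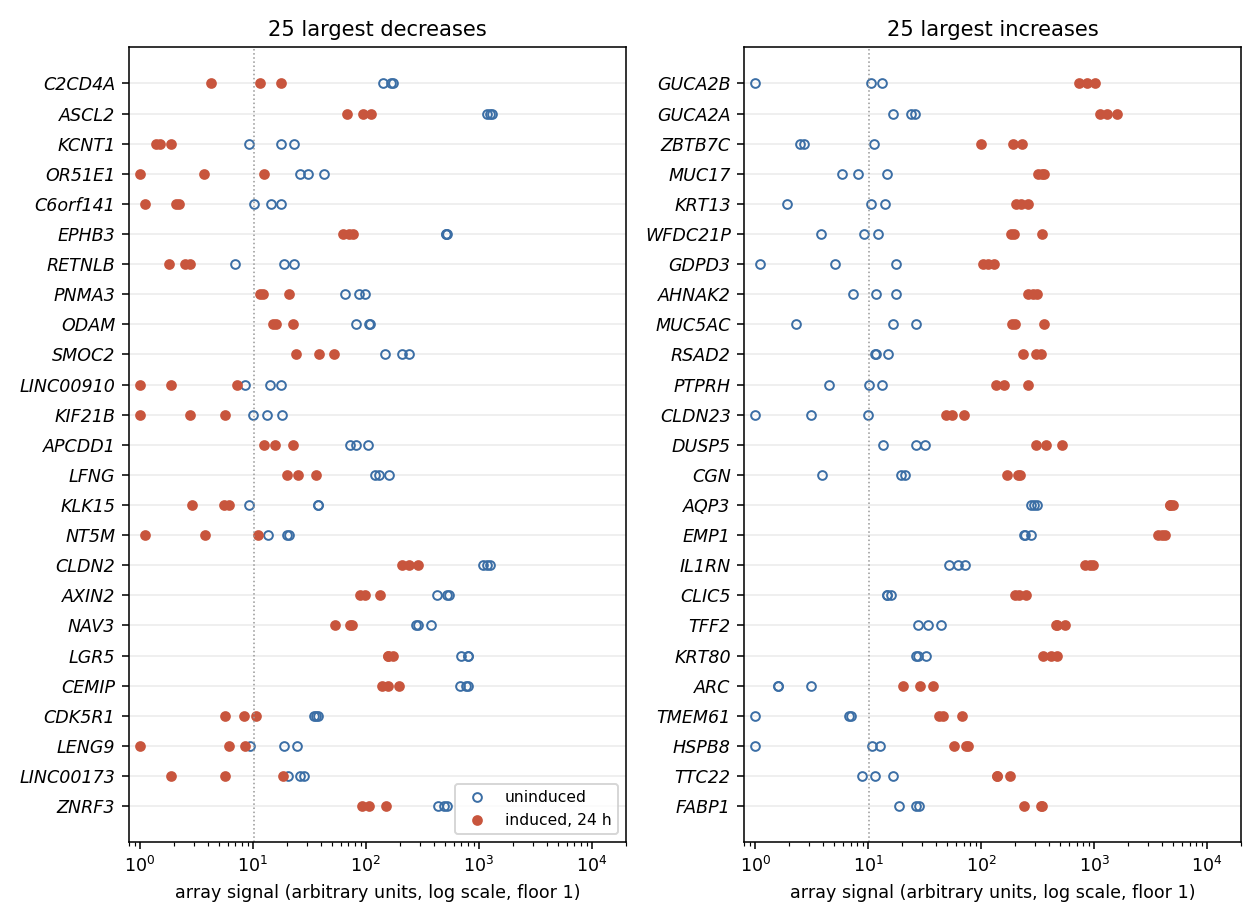
Signal of each array (log axis, values under 1 drawn at 1) for the 25 largest decreases (left) and the 25 largest increases (right), with open circles for the 3 uninduced arrays and filled circles for the 3 induced arrays. The dotted line marks the filter signal of 10.2; the guanylins end at 739.9 or more, and AQP3 and EMP1 start well above the filter.

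Established targets of β-catenin and TCF fell in large part. Of 29 tested Wnt/TCF targets 19 fell (65.5%, against 20% of all genes) and 2 rose, with a median change of -1.53. EPHB3, a receptor that positions cells along the crypt, read 523.3, 508.9 and 517.3 before and 62.7, 70.7 and 77.7 after induction and fell by 2.88 ± 0.11. LGR5, the R-spondin receptor that marks crypt base stem cells, read 802.5, 697.8 and 809.3 before and 158.0, 175.8 and 156.9 after, a decrease that left no overlap. CD44, the hyaluronan receptor, read 2815.6, 2531.7 and 2630.1 before and 975.5, 878.2 and 897.6 after induction, a change of -1.54 ± 0.08. SLC12A2, a chloride cotransporter of crypt cells, fell by 1.58, BMP4 by 1.70 and LRP4, a relative of the Wnt co-receptors, by 1.99. SOX4, a transcription factor, and ABCB1, a drug efflux pump, fell by 0.65 and 0.70. Of 4 other SOX4 probe sets 2 also fell and 2 were not called, 1 of them at 1.11. SOX9, a transcription factor of the crypt, fell by only 0.36 ± 0.12 with overlapping values, and its call was lost when just the 6 arrays of this line were fitted.

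Several canonical targets did not pass. CCND1, encoding cyclin D1, had a change of -0.23 ± 0.10 (adjusted p = 0.0708), although its 3 induced values lay below its 3 uninduced ones. SP5, a zinc finger factor, went from 48.2 to 13.5 (-1.84 ± 0.74) and NKD1, an inhibitor acting on Dishevelled, from 26.1 to 9.03 (-1.53 ± 0.59), both with wide errors. TNIK, PTPRO and PHLDA1 had changes of -0.07, -0.17 and -0.22, those of PROX1 and FGF9 were -0.43 and -0.25. Both targets that rose are secreted or membrane inhibitors. DKK1, which blocks the Wnt co-receptor LRP6, read 163.7, 140.7 and 132.7 before and 365.1, 289.2 and 410.3 after induction, and rose by 1.28 ± 0.32. BAMBI, a pseudoreceptor for BMP and TGF-beta, rose by 0.87 ± 0.14. EPHB2, TCF7 and TDGF1 have no probe set with a single symbol, DKK4, MMP7, NKD2, NOTUM and TNFRSF19 were below the filter, and these genes were not analysed here.

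Part of the inhibitors that the pathway itself induces fell. AXIN2, the scaffold of the complex that degrades β-catenin, read 542.8, 522.8 and 429.5 before and 97.5, 133.8 and 88.5 after induction. ZNRF3 and RNF43, which ubiquitinate Frizzled receptors and so clear them, changed by -2.07 ± 0.15 and -1.44 ± 0.12, and APCDD1, a membrane inhibitor, fell by 2.37. In all, 6 of 12 tested inhibitors fell and 2, DKK1 and the co-repressor TLE1, rose. The rest of the machinery was called in shares near or below those of all genes, 20% lower and 16% higher. Among 18 Wnt ligands and receptors 2 fell (FZD1 and RYK) and 2 rose (FZD5 and LGR4, by 0.76 and 0.87), with a median of 0.07. Of 32 intracellular components 6 fell and 6 rose (18.8% each). LEF1, a TCF family member and itself a target, fell by 2.03 ± 0.46 from 37.4 to 9.16, and JUP, plakoglobin, the junctional relative of β-catenin, rose by 0.94 ± 0.09 from 1082 to 2082.

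Crypt base stem cell genes fell too, and this list shares ASCL2, LGR5, AXIN2, RNF43 and others with the targets. Of 19 tested genes 12 fell and 3 rose, with a median of -1.44. Outside the targets, SMOC2, a secreted matrix-associated protein, fell from 196 to 36.3, LRIG1, an inhibitor of growth factor receptors, fell from 479 to 164, RGMB, a BMP co-receptor, fell from 433 to 175, and CDCA7 fell from 1032 to 436. Another probe set of SMOC2 was not called (-0.54). CD24, a surface protein used to sort stem cells, moved the other way. It read 233.2, 211.2 and 242.2 before and 1878.8, 1689.4 and 1736.2 after induction, a rise of 2.95 ± 0.13. ESPN and RNF32 also rose, by 1.30 and 0.87, and ALCAM and TERT had changes of -0.05 and -0.32 without a call. OLFM4 was below the filter, and BMI1 has no probe set with a single symbol.

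Transcription factors of crypt progenitors followed, 21 of 37 lower and 5 higher, with a median of -0.65. MYB, a factor of proliferating progenitors, read 805.8, 869.3 and 769.4 before and 181.8, 267.3 and 219.6 after induction. ZNF703 fell by 1.84, ID3, an inhibitor of basic helix-loop-helix factors, by 1.48, ETS2 by 1.46 and ETV4 by 1.31. The exceptions were ZBTB7C (up by 5.28 from a signal of 4.23), FOXQ1 (up by 0.97), ID1 (up by 0.81), FOXA3 (up by 0.65) and ID2 (up by 0.44). ID1 and ID3, close paralogs that BMP signalling induces, changed in opposite directions: ID1 read 1130.7, 1128.2 and 861.1 before and 1718.5, 2349.7 and 1460.9 after induction, and ID3 read 1595.0, 2278.5 and 2305.7 before and 634.2, 896.8 and 682.6 after.

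**Figure D3:**
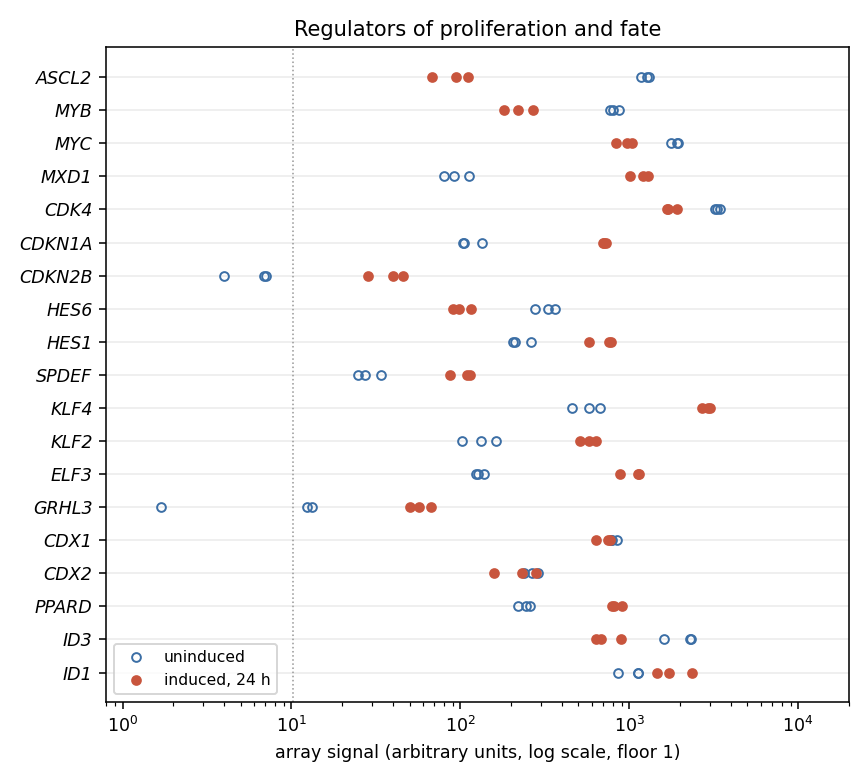
Signal of each array (log axis) for regulators of proliferation and fate, with open circles for uninduced and filled circles for induced arrays. MXD1, CDKN1A, ELF3 and KLF4 lie to the right after induction and ASCL2, MYB and MYC to the left, while the CDX2 values overlap.

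MYC, the growth-promoting factor that acts downstream of Wnt signalling, fell and its antagonist MXD1 rose. MYC read 1941.6, 1753.1 and 1925.4 before and 972.3, 1034.2 and 833.0 after induction, a change of -0.99 ± 0.09 (adjusted p = 2.49e-07). MXD1, which competes with MYC for their partner MAX and represses, read 111.8, 80.1 and 92.0 before and 1199.3, 1005.4 and 1294.4 after, a change of 3.63 ± 0.15. Neither gene's groups overlapped. MAX had a change of 0.09 ± 0.09, MYCL fell by 0.70, and the MYC-associated helicases RUVBL1 and RUVBL2 fell by 0.85 and 0.52. In the whole network of 16 genes 6 fell and 3 rose.

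Ribosome biogenesis genes fell almost throughout. Of 63 tested factors that process and assemble ribosomal RNA and proteins in the nucleolus, 57 fell (90.5%, against 20% of all genes) and none rose, with a median of -0.72. The remaining 6 had changes of -1.02 to -0.02. The decreases were modest, at most 1.20 for RRS1. Induced and uninduced values did not overlap for 61 of the 63, against 47.1% of all genes. Of all 4455 called genes 4290 had no overlap, so this count adds little to the calls. HEATR1, of the small subunit processome, read 254.0, 234.0 and 284.3 before and 102.4, 116.9 and 120.3 after induction. LYAR, a nucleolar protein, fell by 1.15, TSR1, a maturation factor of the small subunit, by 1.09, and NPM1, nucleophosmin, fell by 0.23. RNA polymerase I and III subunits and factors counted 16 lower and none higher of 34, led by POLR3G (-1.14) and POLR1E (-1.04).

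Promoters of these genes were searched for the E-box CACGTG, the site that MYC and MXD1 bind with MAX, because both regulators changed. The promoters are those of RefSeq on GRCh38.p14, 250 bases before to 50 after the start of a gene, and the E-box reads the same on both strands. It was present in 7.43% of all 27305 promoters, in 10.4% of the 10088 promoters of tested genes, in 14.7% of those of called decreases and in 8.68% of those of called increases. Among the 55 ribosome biogenesis genes with a promoter in the table, 23 (41.8%) held it. Other 6-base palindromes with a central CG and the base composition of the E-box were present in 5.45% to 29.1% of these 55 promoters. In the promoters of tested genes they were present in 1.97% to 13.4%. TGCGCA had the highest share among them in both sets. Palindromes of other base composition were not counted. The 23 genes with the E-box had a median change of -0.76 and the 32 without it -0.71. These are descriptions of letters in a window, and binding was not measured. The same search for the TCF core ATCAAAG, or CTTTGAT on the other strand, found it in 1.16% of the promoters of called decreases, 1.17% of those of called increases and 1.47% of those of tested genes. Among called changes of at least 2-fold, 7 of 260 promoters of decreases (2.69%) and 2 of 475 of increases (0.421%) held the TCF core. Whether these shares differ was not tested. Of 18 Wnt/TCF targets whose promoter was listed just 1 held it, SP5, which was not called.

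Below are 4 of the 23 promoters, shown so that the position of the E-box can be seen beside the start of the gene. They were chosen, after their values were seen, among the larger decreases with an E-box. Each line runs 5′ to 3′ on the gene's strand from 120 bases before to 30 bases after the start, and capitals mark the E-box. MRTO4, a ribosome assembly factor, is at chr1:19251685-19251834 on the plus strand and fell by 1.11. NLE1, of the maturing large subunit, is at chr17:35142274-35142423 on the minus strand and fell by 1.04. NOC3L, a nucleolar complex protein, is at chr10:94362910-94363059 on the minus strand and fell by 1.02. UTP20, of the small subunit processome, is at chr12:101279985-101280134 on the plus strand and fell by 0.99.
MRTO4: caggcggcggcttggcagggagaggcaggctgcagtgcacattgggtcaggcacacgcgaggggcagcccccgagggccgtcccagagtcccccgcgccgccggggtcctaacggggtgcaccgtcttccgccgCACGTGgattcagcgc
NLE1: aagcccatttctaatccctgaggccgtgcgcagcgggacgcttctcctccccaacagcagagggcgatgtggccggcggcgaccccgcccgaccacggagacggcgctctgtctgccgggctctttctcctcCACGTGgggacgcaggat
NOC3L: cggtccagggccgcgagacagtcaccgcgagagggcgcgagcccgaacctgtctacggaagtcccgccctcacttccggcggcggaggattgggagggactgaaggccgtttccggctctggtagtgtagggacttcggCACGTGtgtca
UTP20: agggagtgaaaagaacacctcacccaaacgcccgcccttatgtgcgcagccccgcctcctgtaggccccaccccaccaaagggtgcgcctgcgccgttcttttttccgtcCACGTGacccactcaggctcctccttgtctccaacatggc
In the first 3 the E-box lies 12 to 19 bases after the start, and in UTP20 it begins 10 bases before it. MRTO4 read 684.9, 687.3 and 741.0 before and 319.8, 348.5 and 309.0 after induction, and NLE1 read 320.7, 388.6 and 376.6 before and 160.7, 197.8 and 169.5 after. In both, each induced value was well below each uninduced one.

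Other biosynthetic lists fell with the ribosome factors. Nuclear pore proteins and transport receptors counted 33 lower and none higher of 42, with IPO4, an importin, down by 1.26. Of 34 enzymes of purine and pyrimidine synthesis 24 fell, among them CAD, which starts pyrimidine synthesis, by 1.27 and PFAS, of the purine pathway, by 1.20. The 3 that rose were SHMT1 (3.12 to 15.1, mostly below the filter signal), CMPK2, which is also interferon-induced, and ADSS1. Mitochondrial ribosomal proteins had 46 of 75 lower and 1 higher, at a smaller median of -0.33, and chaperonins and heat shock proteins 18 of 24 lower, led by the mitochondrial TRAP1 (-0.97). Aminoacyl-tRNA synthetases had 15 of 32 lower and 1 higher, but 9 lower without con2 and 8 with arrays centred on their median. In the polyamine pathway the synthetic enzymes SRM and ODC1 fell by 1.10 and 0.61, while SMOX, which oxidises spermine, rose by 0.91.

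Cytosolic ribosomal proteins and respiratory chain subunits changed less. Of 57 cytosolic ribosomal proteins 15 fell and 1 rose, with a median of -0.17, and none of the decreases reached 2-fold (the largest was that of RPL39L, 0.79). Small changes were nearly all downward: 55 of the 57 were negative, against 6749 of 12386 genes. Groups did not overlap in 40 of the 57, against 47.1% of all genes. The count of 15 depended on single arrays: 8 were lower without con1, 8 without con2, 9 without dox1, 24 without dox2 and 7 without dox3. Of 66 nuclear encoded respiratory chain subunits 2 fell and 2 rose, 3.03% each way, with a median of 0.00. With 3 arrays per group small changes can be missed.

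**Figure D4:**
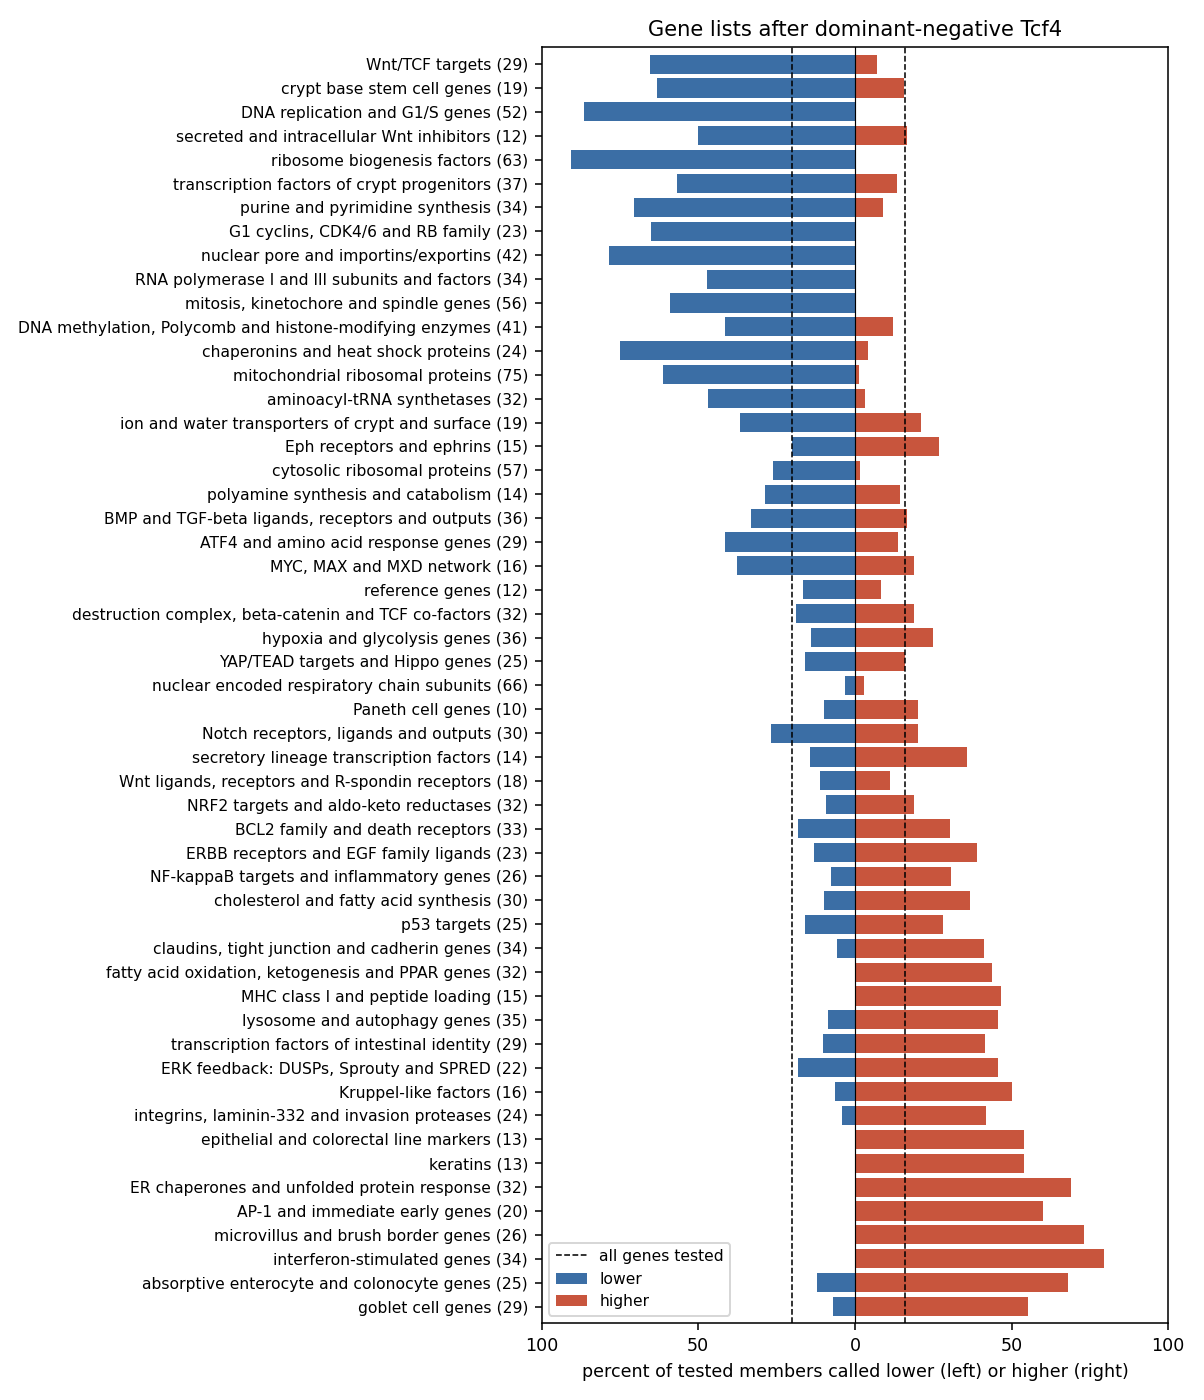
Percent of tested members called lower (blue, to the left) or higher (red, to the right) for each list with at least 10 tested members, ordered by median change, with the number tested in brackets. Dashed lines mark the shares over all genes tested, 20% lower and 16% higher.

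Cell cycle genes fell, both those of replication and those of mitosis. Of 52 DNA replication and G1/S genes 45 fell (86.5%) and none rose, with a median of -0.82. MCM2 and MCM5, of the replicative helicase, fell by 1.18 ± 0.11 and 1.14 ± 0.10, and POLD1, the catalytic subunit of DNA polymerase delta, fell by 1.22. Of 56 genes of mitosis, kinetochore and spindle 33 fell and none rose, at a median of -0.42, and the largest decrease, of CENPM, was 0.97. CCNB1, cyclin B1, fell by 0.32. Whether these 2 lists differ was not tested. The G1 regulators had 15 of 23 lower and none higher. CDK6 read 404.4, 396.2 and 420.8 before and 182.0, 139.2 and 121.6 after induction. CDC25A, the phosphatase that activates CDK2, fell by 1.42, CDK4 by 0.92 and CCND2 by 0.72.

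Inhibitors of cyclin-dependent kinases split by gene. CDKN1A, the p21 protein, read 133.6, 103.9 and 105.2 before and 729.0, 695.0 and 704.0 after induction, a rise of 2.64 ± 0.12. CDKN2B, the p15 inhibitor of CDK4 and CDK6, rose by 2.68 ± 0.32 from below the filter (5.81 to 37.2), and CDKN2D by 0.99. CDKN1B (0.00) and CDKN1C (0.05) did not pass, and CDKN3, a phosphatase expressed in dividing cells, fell by 0.93. The list of p53 targets, which includes CDKN1A, was mixed: of 25 genes 7 rose, among them TP53I3 (1.59), TP53INP1 (1.51) and GADD45A (1.28), and 4 fell, among them PMAIP1 (-0.78).

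Regulators of differentiation rose in several families. Of 16 Kruppel-like and related factors 8 rose and 1 fell. KLF4, a factor of differentiated surface and goblet cells, read 670.5, 581.0 and 458.4 before and 2988.8, 2916.3 and 2692.0 after induction. KLF2, KLF6 and KLF3 rose by 2.14 ± 0.18, 2.00 ± 0.11 and 1.33, and KLF11 fell by 1.01. Of 29 transcription factors of intestinal identity 12 rose and 3 fell. ELF3, an epithelial ETS factor, read 127.4, 138.6 and 124.3 before and 886.5, 1122.9 and 1142.1 after induction, and GRHL3, of the grainyhead family, rose by 3.13 ± 0.66 from 6.54 to 57.4. PPARD, a fatty acid sensor, rose by 1.80 ± 0.12. The caudal factors that define intestinal fate were not called: CDX1 had a change of -0.17 ± 0.09 and CDX2 of -0.27 ± 0.16.

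Secretory lineage factors were changed selectively. SPDEF, which drives goblet cell maturation, rose by 1.84 ± 0.18 from 28.5 to 102, BHLHA15, a factor of secretory cells, rose by 2.23 ± 0.46 from 9.02 to 42.2, and CREB3L1 rose by 0.90. Of 3 other SPDEF probe sets 2 also rose and 1 was not called (-1.09). ATOH1, the factor that opens the secretory lineage, was near the filter and was not called. It read 9.4, 15.2 and 22.2 before and 16.8, 20.3 and 5.2 after induction, and the groups overlapped. HES1, the Notch effector that represses ATOH1, rose from 224 to 698 (1.64 ± 0.14), and HES6, its antagonist, fell from 322 to 101 (-1.67 ± 0.13). In the Notch list, which holds HES1 and HES6, 8 of 30 genes fell (26.7%) and 6 rose (20%). These shares were near those of all genes, 20% lower and 16% higher, and the list's median was 0.06. The decreases included LFNG, JAG2 (-0.74) and NOTCH1 (-0.60). BMP and TGF-beta genes had 12 of 36 lower and 6 higher. The ligands BMP4 and BMP7 fell by 1.70 and 1.47 and the transducer SMAD9 by 1.40, and GDF15, a stress-induced member of the family, rose by 1.04, with another probe set not called (0.19).

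Genes of mature intestinal cells rose. Of 25 absorptive enterocyte and colonocyte genes 17 rose (68%, against 16% of all genes) and 3 fell, with a median of 1.15. MALL, of the raft-associated MAL family, read 93.4, 97.4 and 121.8 before and 925.7, 1130.2 and 1227.0 after induction. FABP1, which carries fatty acids in absorptive cells, rose from 24.1 to 305, PLAC8 from 310 to 2263, HPGD, which inactivates prostaglandins, from 67.7 to 425, and KRT20, the keratin of surface cells, from 95.0 to 388. In each of these the 3 induced values lay above the 3 uninduced ones. The glucose transporter SLC5A1 fell by 1.71, and CA1, a carbonic anhydrase of colonocytes, had a change of -0.27 near the filter signal. The list had 19 further entries that were not tested, most of them below the filter, among them the brush border hydrolases SI, LCT and ANPEP and the colonocyte genes AQP8, CA4 and SLC26A3. With the stricter filter (a signal of 78.2) 10 enterocyte genes were higher.

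Of 29 goblet cell genes 16 rose and 2 fell, with a median of 1.16. MUC2, which forms the colonic mucus gel, read 434.5, 254.3 and 354.1 before and 1226.2, 1564.4 and 1771.9 after induction. The trefoil peptides TFF1, TFF2 and TFF3 rose by 2.07, 3.84 and 1.60. The membrane mucins MUC17, MUC20 and MUC13 rose by 5.26 ± 0.41, 3.24 and 2.57, and another MUC17 probe set was not called (0.53). MUC5AC, a gastric mucin, rose by 4.57 from 10.0 to 238. Its change was 0.33, with no call, when probe sets that can bind several transcripts (names ending in _x_at or _s_at) were left out. Of 3 other MUC5AC probe sets 1 also rose and 2 were not called, with changes from 0.33 to 5.49. RETNLB, a resistin-like goblet protein, and ST6GALNAC1, a mucin sialyltransferase, fell by 2.63 and 0.95. With the stricter filter 10 goblet genes were higher.

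Of the markers of other lineages, most were below the filter. Besides the guanylins, the list of BEST4+ cell genes had BEST2 higher (6.29 to 16.9; the call was lost when just these 6 arrays were fitted) and the chloride channel CFTR lower by 1.09, while BEST4, CA7 and OTOP2 were below the filter. GUCY2C, the guanylin receptor, HES4, NOTCH2NLA and SPIB were not called (0.79, 0.14, -0.03 and -0.46). Of 10 Paneth cell genes PLA2G2A, a secreted phospholipase, fell by 1.92 ± 0.17, REG4 and SPINK4 rose by 0.67 and 1.15, and DEFA6 and REG3A did not pass (-0.71 and -0.57). Enteroendocrine genes could not be read: 1 of 21 entries, MLN, was tested and it was not called. Of 6 tested tuft cell genes 2 rose and 2 fell. The eicosanoid enzymes PTGS1 (22.1 to 204) and ALOX5 (6.33 to 63.8) rose by 3.21 and 3.33, the receptor IL17RB and SOX4 fell by 1.47 and 0.65, and AVIL and PLCG2 were not called (0.22 and -0.02).

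**Figure D5:**
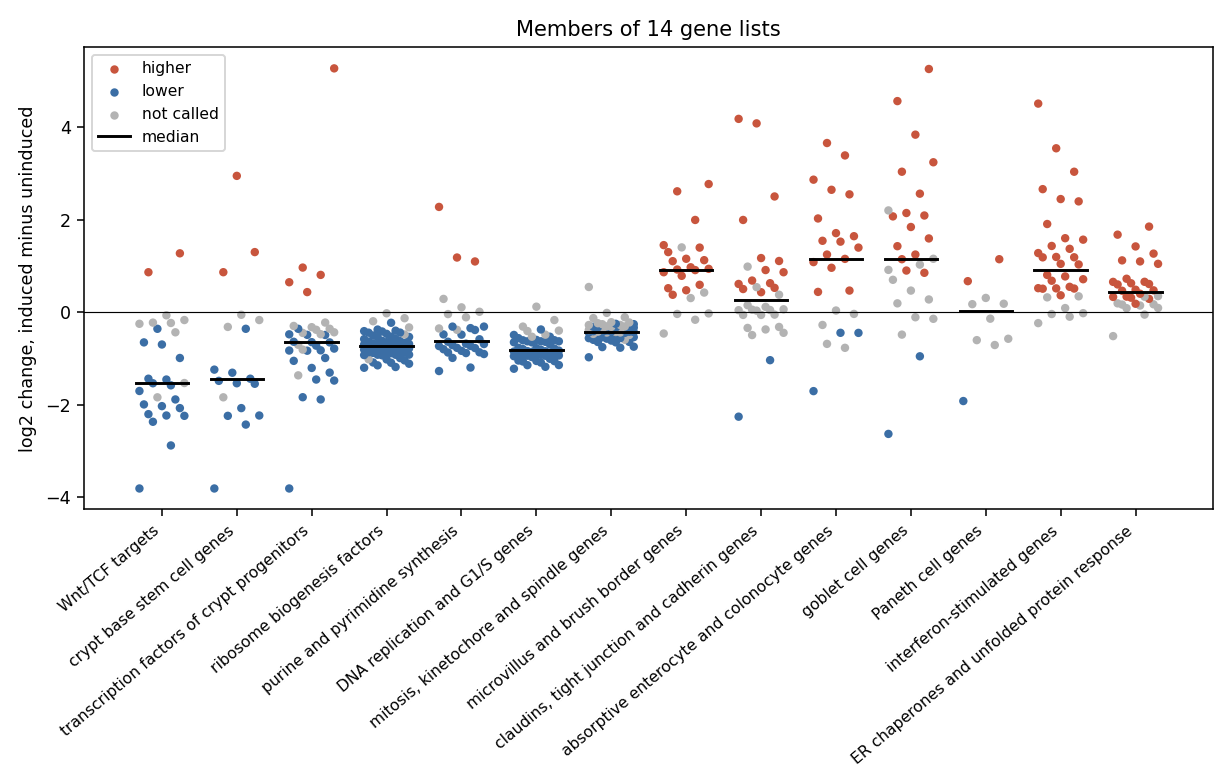
Log2 change of every tested member of 14 lists, in blue where called lower, red where called higher and grey where not called, with a bar at the list's median. Ribosome biogenesis and replication genes lie close together below 0, whereas goblet and enterocyte genes spread from below -1 to above 3.

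Brush border genes and part of the tight junction genes rose. Of 26 microvillus genes 19 rose (73.1%) and none fell, with a median of 0.92. VIL1, villin, rose by 0.94, its relative VILL by 2.77 and MYO7B, a myosin of the tip link complex, by 2.62, and CDHR5 and ANKS4B of the same complex rose by 1.40 and 1.45. Tight junction and cadherin genes had 14 of 34 higher and 2 lower. The 2 that fell were claudins: CLDN2, a pore-forming claudin of the crypt, read 1245.0, 1089.2 and 1175.5 before and 239.8, 211.2 and 287.1 after induction, and CLDN1 fell by 1.04. The barrier claudin CLDN4 rose from 186 to 1058, CLDN23 from 3.14 to 57.1, the scaffold CGN, cingulin, from 11.8 to 199.8, and OCLN, occludin, from 356 to 768. CDH1, E-cadherin, was not called (0.38).

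Of 13 keratins 7 rose and none fell. KRT19 rose by 1.58 from 2479.5 to 7409, and KRT13, a keratin of stratified epithelium, by 5.12 ± 0.91 from 6.54 to 228. KRT7 rose by 2.91, but changed by -0.23 without the probe sets ending in _x_at or _s_at. Among integrin, laminin and protease genes 10 of 24 rose and 1, ITGA6, fell, with 5 higher without con2 and 6 without dox3. PLAUR, the urokinase receptor, rose by 2.78 ± 0.16, LAMB3, a chain of laminin-332, by 2.48 ± 0.15, S100A4 by 2.26 and TIMP2 by 2.18. Of 15 Eph receptors and ephrins 3 fell, 20% as over all genes, and 4 rose. The receptors EPHB3 and EPHA4 and the ligand EFNA4 fell by 2.88, 1.67 and 0.76, and the ligands EFNB1, EFNA1 and EFNB2 and the receptor EPHA2 rose by 1.79, 1.45, 1.37 and 1.28.

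Growth factor and immediate early genes were more often higher. Of 20 AP-1 and immediate early genes 12 rose and none fell, with a median of 0.87. FOS read 53.1, 39.3 and 46.7 before and 182.5, 173.1 and 230.2 after induction, and EGR1, ZFP36 and JUNB rose by 1.47, 1.67 and 1.06, while JUN was not called (0.42). Feedback regulators of ERK had 10 of 22 higher and 4 lower. DUSP5 led them, DUSP1 and DUSP4 rose by 1.41 and 0.92 (another DUSP1 probe set was not called, at -0.21), and ETV4, DUSP2, DUSP16 and SPRY1 fell. Of 23 ERBB pathway and related genes 9 rose, among them the ligands TGFA (1.85), HBEGF (1.40), BTC and EREG (0.54) and the receptors ERBB2 and ERBB3 (0.65 and 0.68). EGFR was not called (0.16). YAP/TEAD genes had 4 of 25 in each direction, close to the background shares.

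Interferon-stimulated genes rose in the largest share of any list in the upward direction. Of 34 tested genes 27 rose (79.4%, against 16% of all genes) and none fell, with a median of 0.92. Groups did not overlap in 29 of the 34, against 47.1% of all genes. OAS1, a sensor of double-stranded RNA, read 415.8, 367.3 and 337.6 before and 1983.6, 1947.1 and 1956.8 after induction. ISG20, an exonuclease, rose by 3.04, OASL by 2.66, ISG15, a ubiquitin-like modifier, by 1.28 ± 0.09, and RSAD2, viperin, rose by 4.51 from 12.6 to 289. The factors IRF9, IRF1 and IRF7 rose by 1.43, 1.19 and 0.78. USP18 (-0.10), IFI6 (-0.04) and IFITM1 (0.09) were not called, CXCL10, MX2 and IFI44L were below the filter, and IFNL1, an interferon, had group signals of 9.96 and 10.2. With the stricter filter 15 of these genes were higher. MHC class I and peptide loading genes had 7 of 15 higher and none lower, by at most 0.43 (HLA-C), and of 26 NF-kappaB targets and inflammatory genes 8 rose, including IL1RN, PIGR (2.00, but 0.27 with no call without the probe sets ending in _x_at or _s_at) and TNFAIP2 (1.62), and 2 fell.

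The secretory apparatus and some catabolic programs rose. Of 32 endoplasmic reticulum chaperone and unfolded protein response genes 22 rose (68.8%) and none fell, at a median of 0.43. SEC24D, of the COPII coat, rose by 1.85, the co-chaperone DNAJB9 by 1.68, EIF2AK3, the stress kinase PERK, by 1.42 and HERPUD1 by 1.27. The amino acid response governed by ATF4 went the other way in part, with 12 of 29 lower and 4 higher. SLC7A5, a leucine transporter, read 3378.0, 3636.1 and 3809.7 before and 859.0, 1030.9 and 1099.5 after induction, and its partner SLC3A2 fell by 1.22, while DDIT4, an inhibitor of mTORC1, rose by 2.14. Lysosome and autophagy genes had 16 of 35 higher and 3 lower, with WIPI1 up by 1.51 and CTSD by 1.23. Fatty acid oxidation and PPAR genes had 14 of 32 higher and none lower. Cholesterol and fatty acid synthesis genes had 11 of 30 higher, including ELOVL6 (1.28), ACSS2 and INSIG1 (1.24 each), and 3 lower, with FASN at -0.67.

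Further lists held changes in both directions, some in shares near or below those of all genes (20% lower and 16% higher). In the hypoxia and glycolysis list 9 of 36 genes rose (25%) and 5 fell (13.9%), and 2 of them rose strongly. EPAS1, the hypoxia factor HIF-2 alpha, read 16.4, 22.8 and 13.8 before and 194.4, 205.0 and 226.0 after induction, and NDRG1 rose by 1.90. NRF2 targets had 6 of 32 higher (18.8%) and 3 lower (9.38%), with AKR1B10, an aldo-keto reductase, up by 1.93. Of 33 BCL2 family and death receptor genes 10 rose (30.3%), led by TNFRSF21 (2.04) and CASP1 (1.42). In the same list 6 fell (18.2%), among them BCL2 (-0.99). Chromatin enzymes fell more often than they rose, 17 of 41 against 5, with KDM2B, CBX2, PRMT3 and the Polycomb methyltransferase EZH2 at -1.18, -1.15, -1.13 and -0.94. In the hedgehog list of 8 genes PTCH1 fell by 0.68 and SHH rose from 11.9 to 31.7, a call that was lost with just these 6 arrays. Of 19 ion and water transporters 7 fell and 4 rose, the latter including AQP3 and the chloride channel ANO1 (1.88).

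Markers of the labelled cell type were present on all 6 arrays. EPCAM, the epithelial adhesion molecule, read 4719.7, 4569.1 and 4613.9 before and 4516.1, 4315.0 and 4529.2 after induction, and the colorectal markers CDX1, CDX2, CDH17 and GPA33 were all above the filter. Markers of other cell types stayed low: 6 of 12 fibroblast, 4 of 14 leukocyte and 2 of 10 endothelial entries were tested, and 1, 1 and 0 of them were called. LUM, lumican, rose from 21.8 to 99.1 and CORO1A, an actin regulator, from 11.3 to 19.6. The call of LUM was lost when all its probe sets were averaged (0.89) and that of CORO1A with an offset (0.65), and COL1A2, COL3A1, PTPRC, CDH5 and VWF were below the filter. Of 12 reference genes TFRC and HPRT1 fell and B2M rose, all by less than 0.5, and ACTB had a change of -0.01. The ratio of 3′ to 5′ signal of β-actin was 1.25 to 1.35 in uninduced and 1.13 to 1.16 in induced arrays, without overlap, and that of GAPDH was 0.992 to 1.01 and 0.968 to 0.980. The part of this shift in the results above was not tested.

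A further reading of single genes concerned their other probe sets. Of 383 called genes selected by the naming rule, 202 had another probe set above the filter. In 87 of these all the others were called in the same direction, in 114 at least 1 other was not called (in KLK15, for example, at 0.65 beside -2.36, and in EPAS1 at 1.05 beside 3.59), and in DLL1, a Notch ligand, another was called in the opposite direction.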

How the data were processed

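RNA of the 6 Ls174T-L8 samples was hybridised to Affymetrix U133 Plus 2.0 arrays, 1 per sample. The authors deposited 1 intensity (signal) per probe set and array on a linear scale. MAS5 and GCOS are named in the submitters' processing notes, with no version, and the genome build is not given in the sources used here. Each array's mean, with the outer values trimmed to keep 96% of probe sets, was 100.0, and 8.19% to 9.25% of values per array lay under 1. Such values carry no detection call, and signals near 10 rest on little more than background.

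Signals below 1 were raised to 1 before log2. The 41097 probe sets with 1 symbol in the array's annotation cover 19775 genes, each read from its probe set of highest mean log2 over all arrays. A gene was tested if that mean reached the median of all probe sets (3.35, a signal of 10.2), which kept 12386. Of these, 447 had a mean below that level over the 6 arrays of this line. limma 3.58.1 in R 4.3.3 fitted 4 group means to all 12 arrays, with variances moderated along a mean-variance trend (eBayes; 8 residual and 8.05 prior degrees of freedom). P-values are two-sided, adjusted by Benjamini and Hochberg over all genes tested, and called under 0.05.

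The 61 gene lists (2023 entries, 1612 of them tested, 1499 distinct genes) were written from general knowledge. The experiment, its members and the lists were chosen with earlier results of these data known, so no list is independent support. Lists are described by counts and medians beside those of all genes. Genes were chosen for naming by a rule: the 25 largest decreases and increases among called genes without overlap, all tested Wnt targets, stem and BEST4+ genes, and up to 5 called members per direction of every other list, not all of which are named. The rule also takes all fate regulators with at least a 2-fold change. Further members, with smaller changes or without a call, were added once their values had been seen. Promoters came from a RefSeq table on GRCh38.p14 that held 10088 of the 12386 genes. The steps were tested on simulated data of 12386 genes. Of 100 genes altered 2-fold 60% were recovered, and of 100 altered 4-fold 85%, with 13 false calls among 158. No other gene was altered in this line, whereas 4455 were called in the data. The adjusted p depends on the share of changed genes, so these rates need not hold for the data.

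Alternatives were quantile normalization, median centring, an offset of 3.5, no filter, a stricter filter, omission of probe sets named _x_at or _s_at, and the mean of a gene's probe sets. Others were just the 6 arrays, no variance trend, array weights, the replicate number as a block, a 2-fold minimum, and each array left out in turn.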

Additional observations from a re-analysis of the deposited data

Results flagged for a closer look

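Of the 50 largest changes, 32 differed from the change of the same gene in the shRNA line, by limma's test of the difference of both inductions (adjusted p under 0.05 over all genes, 17.6% of which passed). The 50 genes were picked by the size of their change in this line, which also enters the difference. Their count therefore cannot be weighed against the share over all genes. Values are the log2 change with dominant-negative Tcf4 at 24 h minus that with the shRNA at 72 h. Construct, derivative and time differ between the lines and cannot be told apart. Among the 18 increases, the difference was 9.40 for GUCA2B, which had a change of -2.01 with the shRNA, 5.29 for GDPD3, 4.80 for GUCA2A, 4.56 for CGN and 4.16 for WFDC21P. It was 3.69 for HSPB8, 3.54 for RSAD2, 3.24 for AHNAK2, 3.18 for TMEM61, 2.91 for ARC and for MUC17, 2.73 for CLDN23, 2.42 for AQP3, 2.31 for KRT80, 2.13 for IL1RN and 1.39 for DUSP5. FABP1 and TFF2 rose less here than with the shRNA, with differences of -3.57 and -1.13.

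Among the 14 decreases, stem cell and Wnt feedback genes fell further here, with differences of -0.87 for ZNRF3, -0.74 for ASCL2, -0.69 for LGR5 and -0.64 for AXIN2. The same held for C2CD4A (-1.61), LFNG (-1.53), NAV3 (-1.06) and the dim KCNT1 (-2.06). The difference was also negative for ODAM (-2.39), KLK15 (-2.06), LINC00910 (-2.82), LENG9 (-2.89) and C6orf141 (-4.04). These genes were not called with the shRNA, where their changes were -0.09, -0.30, 0.39, 0.76 and 1.04. LINC00910, LENG9, C6orf141 and KCNT1, like ARC among the increases, passed the filter through the arrays of the shRNA line. That line enters the comparison, so the differences of these genes support nothing. CEMIP fell less here, with a difference of 1.32.

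Probe sets without a gene name were not used in the lists. Of 3019 above the filter, 410 (13.6%) were called in this line, and 60 were higher by at least 2-fold.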

How the results depend on the processing

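Of 12386 genes 4455 were called, 1981 higher and 2474 lower. Quantile normalization, median centring, the offset, no filter, the stricter filter, just the 6 arrays, no variance trend and array weights gave 3793 to 4753 calls. Averaging all probe sets of a gene gave 2943, 1608 of them lower, leaving out probe sets ending in _x_at or _s_at gave 3037 of 9549 genes tested, and 936 changed at least 2-fold. Leaving out each array in turn gave 3739 to 4055.

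With the stricter filter, which tests fewer genes, 10 enterocyte, 10 goblet and 15 interferon-stimulated genes were higher. Without probe sets ending in _x_at or _s_at 528 list genes were called in place of 804, with 21 nuclear transport, 27 mitochondrial ribosome and 20 mitosis genes lower and 12 brush border genes higher. With the mean of probe sets 19 nuclear transport genes were lower, and 1277 genes in place of 2185 differed between the inductions. Directions reversed for ATF3 (-0.13), BCLAF1 (0.13), IDI1 (-0.21) and KRT7 (-0.23) without those probe sets, and for DLL1 (0.16), DNAJC2 (0.44), HPRT1 (0.20), PAOX (-0.37) and PGD (0.24) with the mean. The cause was not tested. The other counts for 16 lists described above, in their leading direction, stayed within 1.5 times. Of 15 counts of at least 10 called members in the remaining lists, 11 moved further under some alternative: 9 without probe sets ending in _x_at or _s_at, among them lysosome genes higher (7 in place of 16) and chromatin enzymes lower (8 in place of 17), 6 with the mean of probe sets, among them chaperones lower (9 in place of 18) and BMP genes lower (5 in place of 12), and 3 when 1 array was left out. Cytosolic ribosomal proteins lower, 15 at first, counted 7 with median centring, 8 with no filter or no variance trend and 26 with array weights.

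With the replicate number as a block 4188 genes were called. Deviations of same-numbered arrays from their group means correlated at -0.015, 0.059 and -0.0096, and 1 of the 3 uninduced arrays correlated best with its own number. The second principal component (14.65% of the variance) put same-numbered arrays side by side, and the third (13.8%) put them on opposite sides. With 3 arrays per group these values cannot decide whether same-numbered arrays were paired, and the labels state no pairing. Near a signal of 10.2 sizes depend on the floor.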

Other observations

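Several further gene families were picked after their values were seen, so their counts are descriptions and support nothing. The barrier family repeats genes described above, among them KRT13, KRT80, EMP1 and GRHL3. Genes of the stratified epithelial barrier were higher in 17 of 22 cases, with a median of 2.49. PPL, periplakin, rose from 90.7 to 760, CYSRT1 from 106 to 991, ASPRV1, a skin protease, from 27.6 to 343, and S100A14 from 616 to 2504. Membrane proteins of the tetraspanin and L6 families had 9 of 19 higher and 3 lower, with TM4SF1 (700 to 4506), TSPAN1 (198 to 1550) and TM4SF4 (42.9 to 431) among the increases and TSPAN5 (166 to 65.3) among the decreases. Calpains and calpastatin had 6 of 13 higher and none lower, led by CAPN5 (2.57) and CAPN8 (2.38).

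In further families part of the members were called, mostly with smaller changes. Over all genes 20% were lower and 16% higher. Of 8 Arp2/3 subunits, which nucleate branched actin, 6 rose, by 0.30 to 0.46. Of 9 ESCRT-III proteins, which remodel membranes, 5 rose, by 0.61 to 0.78. In the other direction 6 of 8 metallothioneins fell, by 0.40 to 1.15 for MT1G. These probe sets can share sequence between near-identical copies, so single metallothioneins are uncertain. Of 14 tRNA methyltransferases 9 fell and none rose, of 11 subunits of the RNA exosome 6 fell, with EXOSC9 at -1.14 and EXOSC5 at -1.08, and of 7 subunits of the outer mitochondrial translocase 5 fell, with TOMM40 at -0.77.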
